A study of Rattus norvegicus with 6 samples.

Results

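The collagen chains are the genes whose symbol is Col, a number, a and a number, the names of the alpha chains from which collagens are built. In the table of 22864 genes, 44 carry such a symbol, and 42 of them had enough reads to be tested among 15531 genes. The libraries are bulk RNA sequencing of ipsilateral L4 to L6 dorsal root ganglia, the clusters of sensory neuron cell bodies that serve the hind limb, from wild-type rats (Rattus norvegicus). The labels describe the ring size for male rats and name neither strain nor age.

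Each of the 3 groups had 2 libraries. CPIP, chronic post-ischaemia pain, was induced in CPIP+Veh and CPIP+ETA rats by a tight O-ring left on a hind limb, close to the ankle, for 3 h under pentobarbital. Sham+Veh rats were anaesthetised alike but never wore a ring. Vehicle (Veh) or, for CPIP+ETA, etanercept (ETA), a soluble receptor that binds the cytokine TNF, was given by daily intrathecal injection beginning 2 days after the ischaemia. Ganglia were taken on day 7, and the dose is not given in the labels. Whether both libraries of a group represent different animals, or pools, is not in the labels, so the p-values rest on library-to-library spread that may be technical.

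Collagens are the structural proteins of the extracellular matrix, in which alpha chains wind around each other into a helix. Fibrillar chains form the tensile fibres of the endoneurium and the ganglion capsule, the type IV chains form the sheet inside basement membranes around Schwann cells, satellite glia and capillaries, and type VI chains form beaded microfibrils between them. Fibril-associated chains decorate fibres, and the rest include transmembrane collagens, short-chain networks and the anchoring fibrils of skin. Fibroblasts make most fibrillar collagen in nerve, with contributions from Schwann cells and vessel walls.

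Library totals ran from 18284891 to 19981081 estimated reads. All 10 sensory neuron markers had at least 28.4 CPM in every library, among them Prph at 2114 to 2447 and Avil at 994 to 1136 CPM (counts scaled to a common library total with TMM factors). The tissue label therefore matched its defining markers in all 6 libraries. The collagen chains took 0.499% and 0.524% of reads for Sham+Veh 1 and 2, 0.41% and 0.47% for CPIP+Veh 1 and 2, then 0.367% and 0.431% for CPIP+ETA 1 and 2. Both sham libraries lay above every ischaemia library, and CPIP+ETA 1 was the lowest. In bulk tissue, fewer cells of a type and less RNA per cell cannot be told apart.

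By reads, Col3a1 (18.8% of all collagen reads), Col1a1 (15.5%) and Col5a3 (11.1%) led, shares that depend on transcript length as well as level. No transcript lengths were available, so levels are compared between libraries and not between genes. Summed over the 11 fibrillar chains the level was 3339 and 3527 CPM for Sham+Veh 1 and 2, 2618 and 3111 for CPIP+Veh, then 2304 and 2702 for CPIP+ETA. The sham libraries were the highest, and the CPIP+Veh and CPIP+ETA ranges overlapped. The mean fibrillar sum was 3433 ± 133 CPM in sham (SD, n = 2), 2865 ± 348 in CPIP+Veh, a difference from sham of -16.6%, and 2503 ± 282 in CPIP+ETA, a difference of -27.1%. The 6 basement membrane chains summed to 533 and 556, 515 and 509, and 463 and 549.6 CPM, and the 6 microfibrillar chains to 409 and 492, 364 and 402, and 337 and 392 CPM. For the microfibrillar sum every ischaemia library lay below both sham libraries, whereas for the basement membrane sum CPIP+ETA 2 lay inside the sham range. The 9 fibril-associated chains summed to 402 and 383, 368 and 397, and 368 and 386 CPM, with overlap between all groups.

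**Figure D1:**
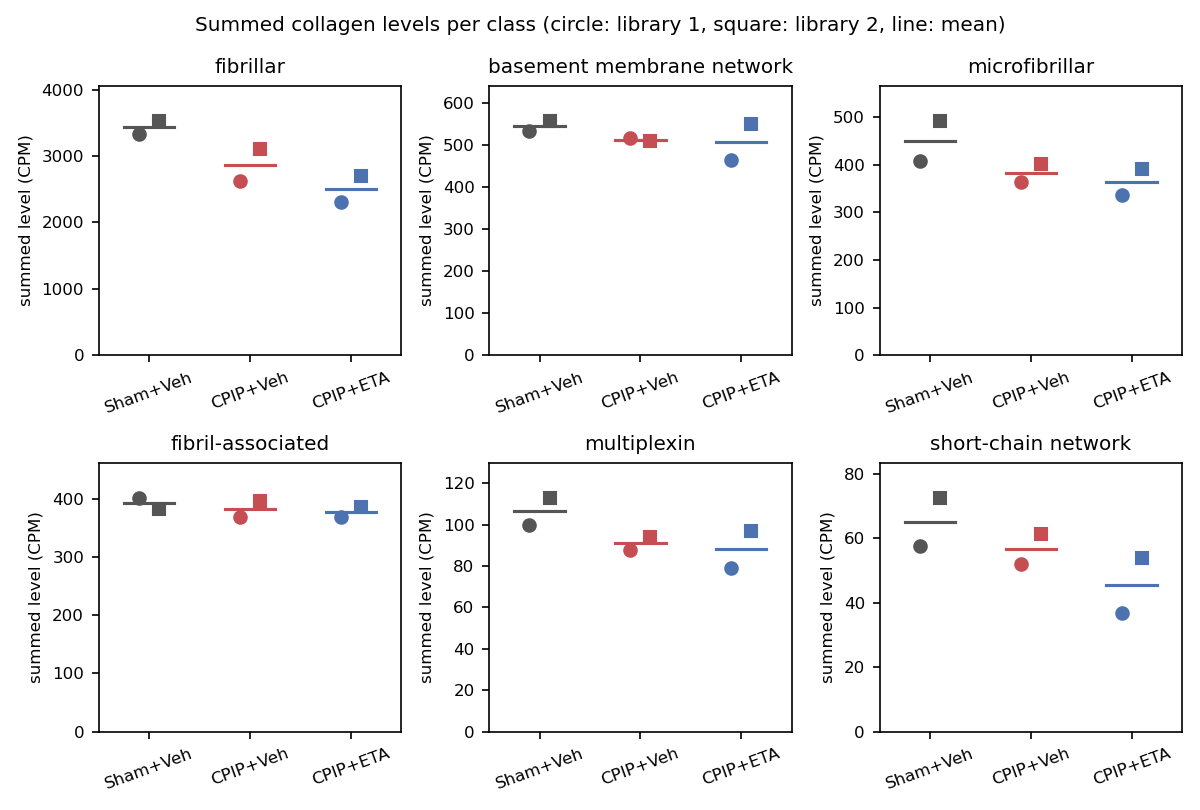
Summed level (CPM, y axis from 0) of 6 collagen classes in each library, by group on the x axis, with a circle for library 1, a square for library 2 and a line at the mean. The fibrillar sums of the ischaemia libraries (2304 to 3111 CPM) all lie below those of the sham libraries (3339 and 3527 CPM), while the fibril-associated sums overlap.

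The effect of ischaemia under vehicle was read from CPIP+Veh against Sham+Veh. Of the 42 chains tested, 30 lay below sham (51.0% of all genes tested did) and 12 above (49.0%), and the median log2 fold change of the chains was -0.12 (0.00 over all genes). None passed edgeR's quasi-likelihood test after Benjamini-Hochberg adjustment (0.0193% of all genes did), and limma-voom called none (0.0129%). DESeq2 called Col15a1 (0.315% of all genes). At an unadjusted edgeR p under 0.05, 5 chains were lower (2.59% of all genes) and 1 higher (2.34%). The 5 were Col1a2, Col3a1, Col4a3, Col6a1 and Col15a1, and the higher one was Col22a1. The 2 groups did not overlap for 15 chains that were lower (19.5% of all genes) and 2 that were higher (17.6%). The count of 5 was 2 without Sham+Veh 2, 3 without CPIP+Veh 1, and 8 when CPIP+Veh 2 or either CPIP+ETA library was left out. The higher chain was lost without Sham+Veh 1 or CPIP+Veh 2. Leaving out Sham+Veh 2 gave a median of -0.06 and leaving out Sham+Veh 1 one of -0.19.

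CPIP+ETA was compared with Sham+Veh, which shares its control libraries with the comparison above. Here 32 of the 42 chains lay below sham (50.7% of all genes did) and 10 above (49.3%), and the median log2 fold change was -0.19 (0.00 over all genes). Again edgeR called no chain after adjustment (0.0193% of all genes) and limma-voom none (0.00644%), while DESeq2 called Col15a1 and Col1a2 (0.322%). At an unadjusted edgeR p under 0.05, 10 chains were lower (3.73% of all genes) and 2 higher (2.64%). The lower chains were Col1a1, Col1a2, Col2a1, Col3a1, Col5a1, Col6a1, Col6a2, Col6a3, Col8a2 and Col15a1, and the higher ones Col9a1 and Col22a1. The groups did not overlap for 18 chains that were lower (18.5% of all genes) and 2 that were higher (17.2%). The count of 10 depended on the CPIP+ETA libraries: it was 4 without CPIP+ETA 1, 20 without CPIP+ETA 2 and 6 without Sham+Veh 2, with a median of -0.06 without CPIP+ETA 1 and -0.37 without CPIP+ETA 2. The 2 higher chains were 0 without CPIP+ETA 1 or Sham+Veh 1 and 1 without CPIP+ETA 2 or CPIP+Veh 2.

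The effect of etanercept within the model was read from CPIP+ETA against CPIP+Veh. Of the 42 chains, 30 lay below CPIP+Veh (50.4% of all genes did) and 12 above (49.6%), and the chains' median was -0.08 on the log2 scale (0.00 for all genes). No chain passed edgeR's test after adjustment (0% of all genes), nor DESeq2's (0.135%) or limma-voom's (0%). At an unadjusted edgeR p under 0.05, 0 chains were lower (2.73% of all genes) and 1, Col9a1, was higher (2.42%). The groups did not overlap for 1 chain that was lower, Col27a1 (16.9% of all genes), and for 3 that were higher, Col4a3, Col9a1 and Col15a1 (15.7%). Without CPIP+ETA 1 the chains below CPIP+Veh numbered 18 and the median was 0.02, and without CPIP+ETA 2 they numbered 34, with a median of -0.21 and 12 chains lower at an unadjusted p under 0.05. Without CPIP+Veh 1 there were 3 such chains and a median of -0.15, and without CPIP+Veh 2 there was 1 and a median of 0.00. The higher chain was lost without either CPIP+ETA library.

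**Figure D2:**
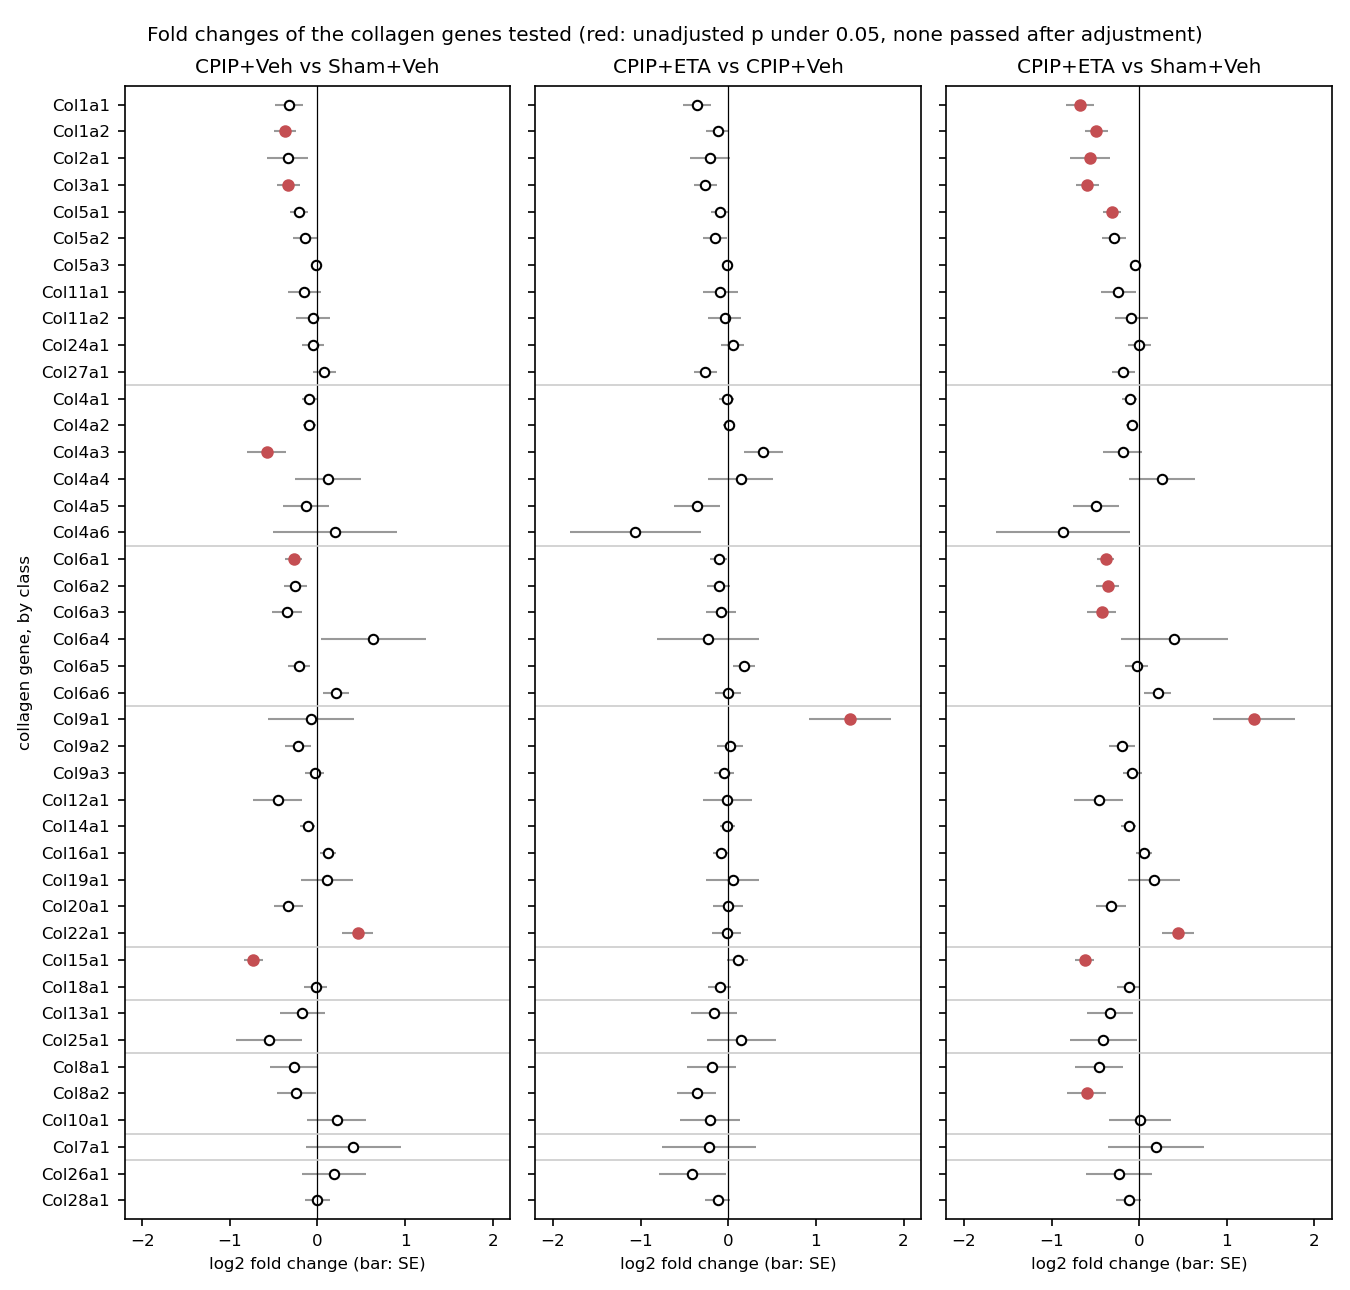
Log2 fold change of the 42 chains tested (x axis, bars are the SE from edgeR) in the 3 comparisons, with the chains in rows by class and red for an unadjusted p under 0.05. Red points to the left of 0 number 5 in CPIP+Veh against Sham+Veh and 10 in CPIP+ETA against Sham+Veh, and the only red point in CPIP+ETA against CPIP+Veh is Col9a1, to the right.

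Among the 42 chains, 10 had all 4 ischaemia libraries below both sham libraries (8.38% of all genes did), and 1, Col22a1, had all 4 above (7.42%). The 10 were Col1a1, Col1a2, Col3a1, Col5a1, Col5a2, Col6a1, Col6a3, Col12a1, Col15a1 and Col20a1. They were named after their values were seen, and neither count has a test.

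**Figure D3:**
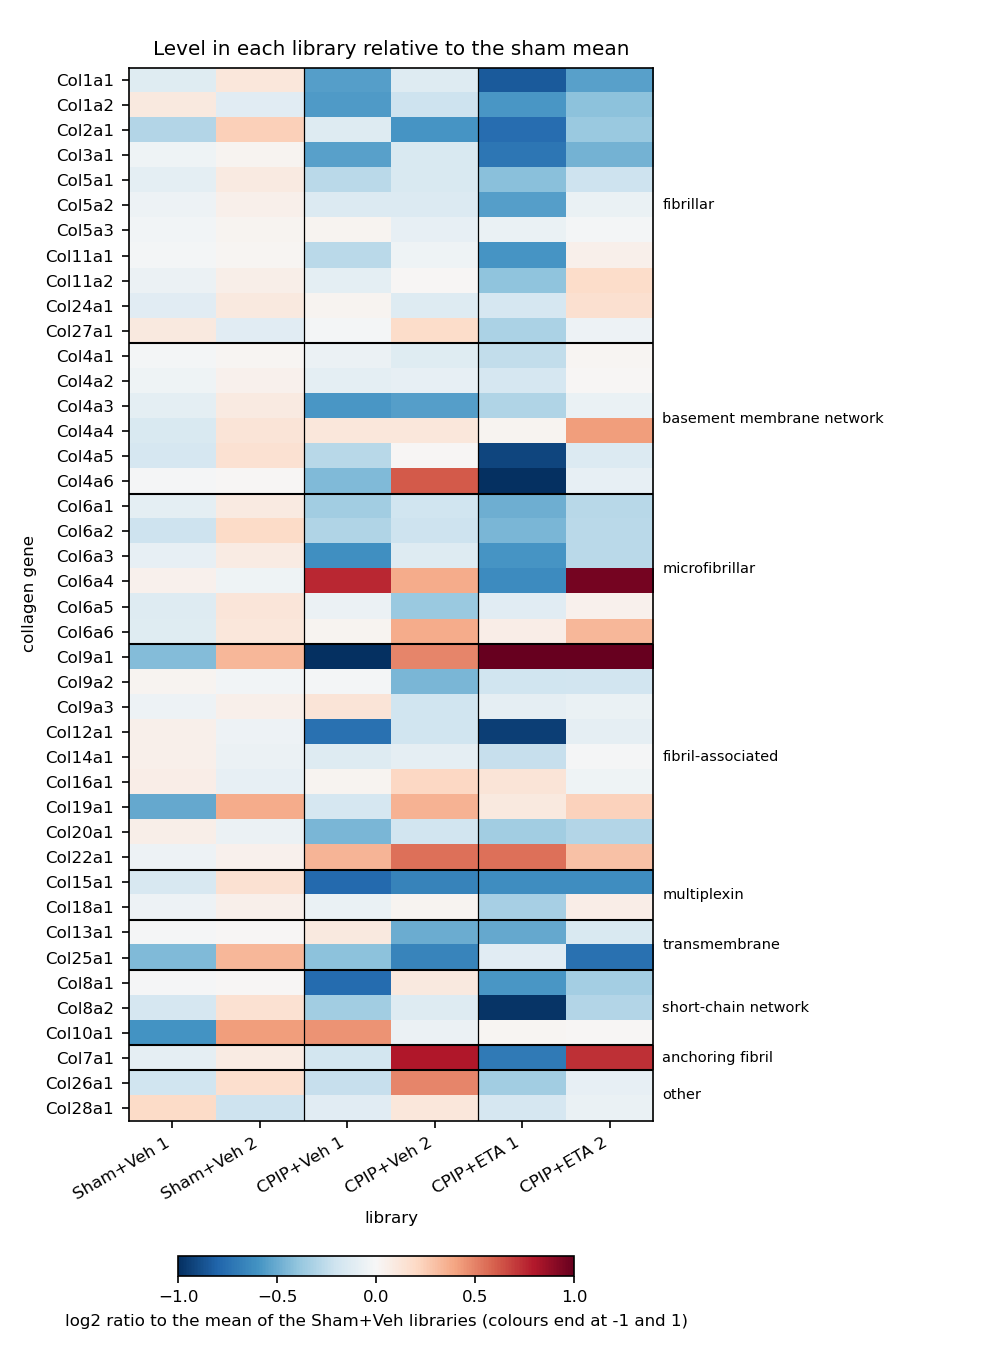
Log2 ratio of each chain's level to the mean of the Sham+Veh libraries (colour, ends at -1 and 1), with the 42 chains tested in rows by class and the 6 libraries in columns. Col1a1, Col1a2, Col3a1, Col6a1 and Col15a1 are blue in all 4 ischaemia libraries, CPIP+ETA 1 has the lowest median of the chains (-0.35), and Col9a1 is red in both CPIP+ETA libraries.

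Of the 11 fibrillar chains, 10 lay below sham in each ischaemia group, and those with the most reads were the chains of type I and type III collagen, the bulk of the tensile fibres, and Col5a3. Col1a1, one of the type I chains, stood at 793 and 936 CPM for Sham+Veh 1 and 2, 592 and 793 for CPIP+Veh, then 484 and 595 for CPIP+ETA. CPIP+Veh 2 lay below Sham+Veh 1 by less than 1 CPM, and both CPIP+ETA libraries lay clearly below sham. Its log2 fold change was -0.32 (SE 0.16) in CPIP+Veh and -0.68 (SE 0.16, edgeR adjusted p = 0.555) in CPIP+ETA against sham. Leaving out CPIP+Veh 1 made the first value -0.12, leaving out CPIP+Veh 2 made it -0.55, and leaving out Sham+Veh 2 made it -0.20. Col1a2, the other type I chain, stood at 585 and 506, 368 and 473, and 364 and 411 CPM in the same order. All 4 ischaemia libraries were below sham, and CPIP+Veh 1 and CPIP+ETA 1 were the lowest. The log2 fold changes were -0.37 (SE 0.13, edgeR adjusted p = 0.938; -0.20 without CPIP+Veh 1, -0.57 without CPIP+Veh 2) and -0.49 (SE 0.13, edgeR adjusted p = 0.617), and DESeq2 called the second (adjusted p = 0.0444). Col3a1, the only chain of type III collagen, which is found with type I in vessel walls and nerve sheaths, stood at 1008 and 1059, 711 and 929, and 627 and 745 CPM. The 2 sham libraries were close to each other and the ischaemia libraries were all lower. Its log2 fold changes were -0.33 (SE 0.13, edgeR adjusted p = 0.938; -0.15 without CPIP+Veh 1, -0.54 without CPIP+Veh 2) and -0.59 (SE 0.13, edgeR adjusted p = 0.531).

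The reads of Col1a1 and Col1a2 did not keep a fixed ratio, which ranged from 1.33 in CPIP+ETA 1 to 1.85 in Sham+Veh 2 (1.36 in Sham+Veh 1). Col1a1, Col1a2 and Col3a1 together took 48% and 47.7% of collagen reads for sham, 40.7% and 46.7% for CPIP+Veh, then 40% and 40.8% for CPIP+ETA. The other 8 fibrillar chains, a set formed after the values were seen, summed to 953 and 1025, 946 and 916, and 828 and 951 CPM, a difference of the means from sham of -5.86% in CPIP+Veh and -10.1% in CPIP+ETA.

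Between CPIP+ETA and CPIP+Veh, Col1a1 had a log2 fold change of -0.36 (SE 0.16, edgeR adjusted p = 0.938) and Col3a1 of -0.26 (SE 0.13, edgeR adjusted p = 0.938). For both genes CPIP+Veh 1 lay inside the range of the CPIP+ETA libraries. Without CPIP+Veh 2 the values were -0.13 and -0.05, without CPIP+ETA 1 they were -0.22 and -0.14, and without CPIP+Veh 1 they were -0.55 and -0.43.

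**Figure D4:**
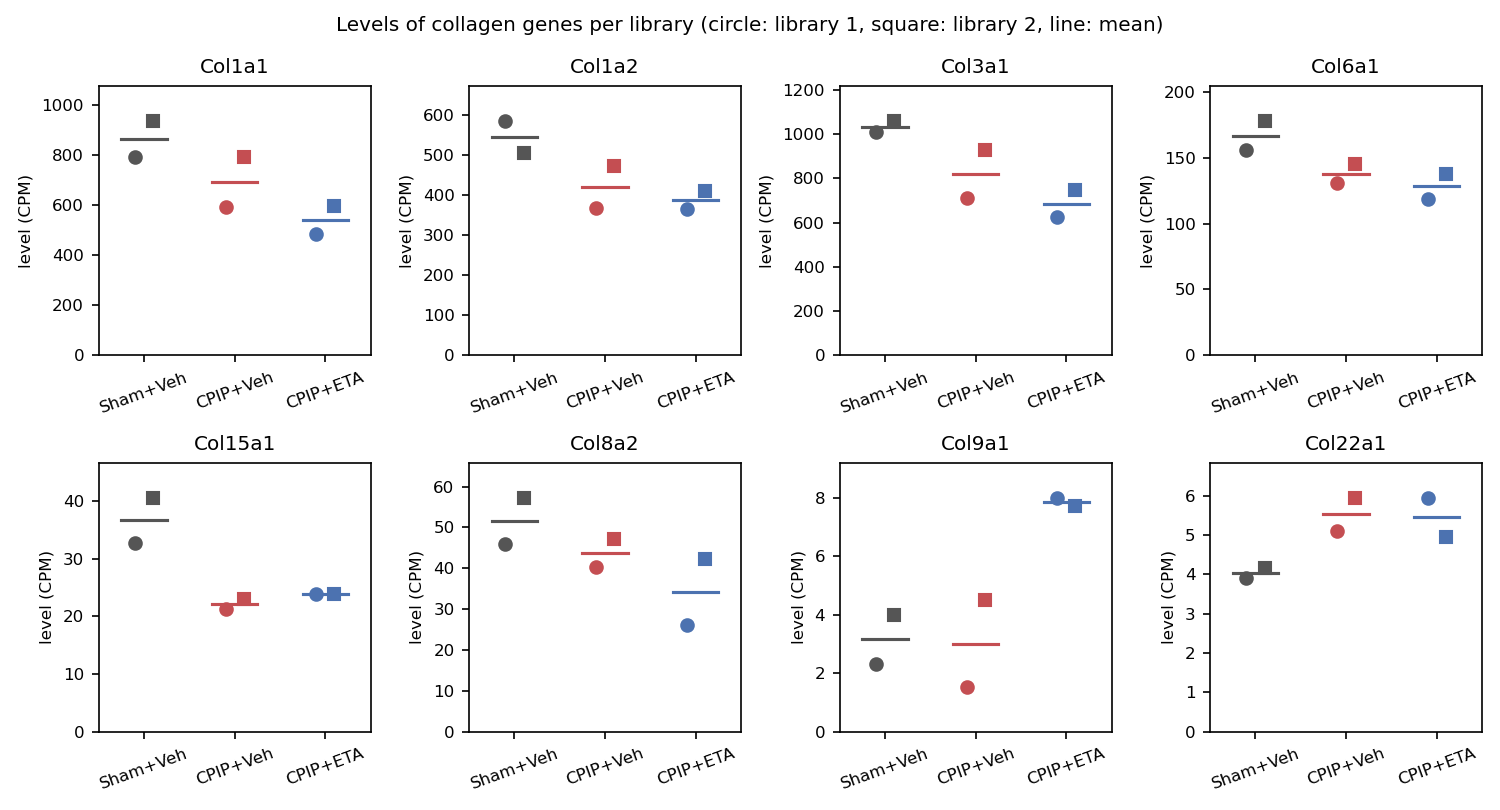
Level (CPM, y axis from 0) of 8 collagen genes in each library, by group on the x axis, with a circle for library 1, a square for library 2 and a line at the mean. Col1a1, Col1a2, Col3a1, Col6a1 and Col15a1 are lower in every ischaemia library than in sham, Col22a1 is higher in every one, and Col9a1 stands at 8.01 and 7.73 CPM in CPIP+ETA against at most 4.49 CPM elsewhere.

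Beside Col1a1, Col1a2 and Col3a1, not all fibrillar chains had every ischaemia library below sham. Type V chains sit inside type I fibres and limit their width. Col5a1 stood at 142 and 162 CPM for sham, 126 and 137 for CPIP+Veh, then 113 and 132 for CPIP+ETA, with a log2 fold change of -0.31 (SE 0.098, edgeR adjusted p = 0.668; -0.20 without CPIP+ETA 1) in CPIP+ETA against sham. Every ischaemia library was below sham. Col5a3, the type V chain that Schwann cells of rat peripheral nerve secrete, stood at 494 and 518, 517 and 478, and 482 and 499 CPM, and its log2 fold change in CPIP+ETA against sham was -0.05 (SE 0.058). The 3 groups overlapped for Col5a3, whereas every ischaemia library was below sham for Col5a1; the difference between the genes was not tested. Col2a1, the main collagen of cartilage, stood at 31.8 and 45.8, 35.5 and 25.7, and 22.8 and 30 CPM. The CPIP+ETA libraries lay below sham, with a log2 fold change of -0.56 (SE 0.23, edgeR adjusted p = 0.781), which was -0.27 without Sham+Veh 2 and -0.36 without CPIP+ETA 1. Of the remaining fibrillar chains, Col5a2, Col11a1, Col11a2, Col24a1 and Col27a1, none had an unadjusted edgeR p under 0.05 in any comparison.

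RefSeq promoter windows, from 250 bases before to 50 bases after the annotated start, were found for 35 of the 44 chains, in build GRCr8, a later build than the Rnor_6.0 of the data. Not matched were Col1a1, Col2a1, Col3a1, Col6a2, Col9a3, Col12a1, Col14a1, Col22a1 and Col25a1. The windows were searched on both strands for the letters of 3 classical promoter elements. The first element, searched as TATAAA, was in 11.4% of the collagen windows and in 14.3% of all 27457 windows of this length. The second, searched as CCAAT, was in 31.4% of the collagen windows and in 37.7% of all. The GC box, searched as GGGCGG, was in 54.3% and 34.9%. A match describes the letters of a window only. The first 3 windows below are those of chains with an unadjusted edgeR p under 0.05 on the lower side in CPIP+ETA against sham, shown because they differ in these elements (GRCr8 chr4:33518307-33518606, plus strand; GRCr8 chr5:66297296-66297595, plus strand; GRCr8 chr5:143870519-143870818, plus strand). Capitals mark letters of these elements on either strand.
Col1a2: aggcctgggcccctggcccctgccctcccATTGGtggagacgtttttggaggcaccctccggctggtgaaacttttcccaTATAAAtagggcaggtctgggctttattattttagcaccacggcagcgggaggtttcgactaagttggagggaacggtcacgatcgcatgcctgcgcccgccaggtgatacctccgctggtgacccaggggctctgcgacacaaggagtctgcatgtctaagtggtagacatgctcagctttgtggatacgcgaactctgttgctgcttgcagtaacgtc
Col15a1: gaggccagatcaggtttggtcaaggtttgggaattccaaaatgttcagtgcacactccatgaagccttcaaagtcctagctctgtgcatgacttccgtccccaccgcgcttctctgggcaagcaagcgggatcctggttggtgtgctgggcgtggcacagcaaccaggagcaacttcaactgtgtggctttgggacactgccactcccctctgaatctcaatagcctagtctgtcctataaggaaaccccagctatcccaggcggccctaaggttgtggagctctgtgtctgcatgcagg
Col8a2: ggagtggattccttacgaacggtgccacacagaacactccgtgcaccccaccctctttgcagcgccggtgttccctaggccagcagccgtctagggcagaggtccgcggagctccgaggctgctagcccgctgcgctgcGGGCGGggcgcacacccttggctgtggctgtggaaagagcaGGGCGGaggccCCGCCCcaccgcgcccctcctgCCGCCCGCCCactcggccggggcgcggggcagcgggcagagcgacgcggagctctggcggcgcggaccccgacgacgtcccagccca
The Col1a2 window held 1 TATA match and 1 CCAAT match, beginning 170 and 221 bases before the annotated start. That of Col8a2 held 5 GC box matches, and that of Col15a1 held none of the 3.

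Type VI collagen is built from Col6a1 and Col6a2 with a chain of the Col6a3 kind, and all 3 of these chains had lower means in both ischaemia groups. Col6a1 stood at 156 and 178 CPM for sham, 131 and 145 for CPIP+Veh, then 119 and 138 for CPIP+ETA. Its groups did not overlap between sham and either ischaemia group. The log2 fold changes were -0.27 (SE 0.098, edgeR adjusted p = 0.938; -0.18 without Sham+Veh 2) in CPIP+Veh and -0.38 (SE 0.098, edgeR adjusted p = 0.617) in CPIP+ETA. Col6a2 stood at 138 and 182, 130.4 and 139, and 116 and 133 CPM, with a log2 fold change of -0.36 (SE 0.13, edgeR adjusted p = 0.757) in CPIP+ETA that became -0.15 when Sham+Veh 2 was left out and -0.55 when Sham+Veh 1 was. Sham+Veh 2 stood above the 5 other libraries. Col6a3 stood at 56.4 and 62.9, 39.0 and 54.6, and 39.6 and 49.3 CPM, with a log2 fold change of -0.43 (SE 0.17, edgeR adjusted p = 0.769; -0.27 without CPIP+ETA 1) in CPIP+ETA. The read ratio of Col6a1 to Col6a2 stayed between 0.98 and 1.13. Of the alternatives to Col6a3, Col6a4, Col6a5 and Col6a6 had no unadjusted edgeR p under 0.05 in any comparison. Col6a6 stood at 24.2 and 28.5, 26.9 and 34.1, and 27.8 and 33.3 CPM, and Col6a5 at 33.7 and 40.2, 35.3 and 28.5, and 34.2 and 38.1 CPM. Col6a4, at 101 reads in all libraries together, had too few for a precise value.

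Col4a1 and Col4a2, the chains of nearly all basement membranes, differed little between groups. Col4a1 stood at 302 and 309 CPM for sham, 293 and 281 for CPIP+Veh, then 256 and 309.7 for CPIP+ETA, and Col4a2 at 216 and 228, 207 and 211, and 197 and 223 CPM. CPIP+ETA 1 was the lowest library for both genes. In CPIP+Veh against sham the log2 fold changes were -0.09 (SE 0.089) for Col4a1 and -0.09 (SE 0.071) for Col4a2 (-0.05 without Sham+Veh 2). In CPIP+ETA against sham they were -0.11 (SE 0.089) and -0.08 (SE 0.071), and without CPIP+ETA 1 they changed sign, to 0.03 and 0.02. The read ratio of Col4a1 to Col4a2 stayed between 1.30 and 1.41. These genes lie head to head, their annotated starts 77 bases apart on opposite strands, so that 176 bases of the Col4a1 window are also in the Col4a2 window, read on the other strand. The Col4a1 window (GRCr8 chr16:84885347-84885646, plus strand) is shown because the windows of both genes share part of it, with the shared bases in capitals.
Col4a1: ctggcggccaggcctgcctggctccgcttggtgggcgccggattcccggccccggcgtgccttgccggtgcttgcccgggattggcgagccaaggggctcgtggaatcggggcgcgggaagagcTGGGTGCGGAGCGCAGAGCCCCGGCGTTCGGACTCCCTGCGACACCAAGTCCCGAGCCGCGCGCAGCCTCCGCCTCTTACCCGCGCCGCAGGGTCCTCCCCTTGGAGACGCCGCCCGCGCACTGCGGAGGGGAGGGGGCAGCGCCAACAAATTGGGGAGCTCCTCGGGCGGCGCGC
It held 2 CCAAT matches and 2 GC box matches, and no TATA match.

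The other type IV chains had few reads. Col4a3, which joins Col4a4 and Col4a5 in specialised basement membranes, stood at 3.14 and 3.61 CPM for sham, 2.23 and 2.27 for CPIP+Veh, then 2.72 and 3.21 for CPIP+ETA. CPIP+Veh lay below both other groups. The log2 fold change was -0.58 (SE 0.22, edgeR adjusted p = 0.938) in CPIP+Veh against sham and 0.40 (SE 0.22, edgeR adjusted p = 0.938) in CPIP+ETA against CPIP+Veh, comparisons that share the CPIP+Veh libraries. Col4a4, also in a head-to-head pair with Col4a3, stood at 0.704 to 1.09 CPM with 99 reads in all. Col4a5 stood at 11 and 13.8, 10.2 and 12.5, and 6.50 and 11.2 CPM, and Col4a6 at 0.921 and 0.930, 0.658 and 1.46, and 0.151 and 0.871 CPM. Both had their lowest level in CPIP+ETA 1, and no unadjusted edgeR p under 0.05.

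Col15a1, a collagen of the basement membrane zone that ties it to the fibres around capillaries and nerve, had the lowest p of the collagen chains in both comparisons with sham. It stood at 32.8 and 40.6 CPM for Sham+Veh 1 and 2, 21.3 and 23.0 for CPIP+Veh, then 23.8 and 23.9 for CPIP+ETA. The 4 ischaemia libraries lay within 3 CPM of each other and below both sham libraries. The log2 fold change was -0.73 (SE 0.11, edgeR adjusted p = 0.375) in CPIP+Veh and -0.62 (SE 0.11, edgeR adjusted p = 0.446) in CPIP+ETA. With a library left out it ran from -0.88 to -0.57 and from -0.77 to -0.46. DESeq2 called both (adjusted p = 0.00363 and 0.041), and limma-voom did not (0.354 and 0.472). Between CPIP+ETA and CPIP+Veh the log2 fold change was 0.11 (SE 0.12). Col18a1, the other multiplexin and the source of endostatin, stood at 67.3 and 72.3, 66.5 and 71.3, and 55.4 and 73.2 CPM, with overlap between all groups.

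The fibril-associated chains lay on both sides of sham. Col9a1, a chain of cartilage type IX collagen, stood at 2.33 and 3.99 CPM for sham, 1.52 and 4.49 for CPIP+Veh, then 8.01 and 7.73 for CPIP+ETA, or 43 and 73, 30 and 89, and 159 and 142 reads. The CPIP+ETA libraries were close to each other and above the 4 others, which were spread. Its log2 fold change was 1.39 (SE 0.47, edgeR adjusted p = 0.938) against CPIP+Veh and 1.31 (SE 0.47, edgeR adjusted p = 0.75) against sham. The first was 0.81 without CPIP+Veh 1 and 2.37 without CPIP+Veh 2. Col9a2 and Col9a3, its partner chains, had no unadjusted edgeR p under 0.05: Col9a2 stood at 17.7 and 16.9, 17.1 and 12.6, and 15 and 15.1 CPM and Col9a3 at 46.5 and 49.8, 52.6 and 41.8, and 45.2 and 46.0 CPM. Col22a1, a collagen of tissue junctions such as that of muscle and tendon, stood at 3.90 and 4.16, 5.11 and 5.95, and 5.94 and 4.96 CPM. It was higher in every ischaemia library, with log2 fold changes of 0.46 (SE 0.18, edgeR adjusted p = 0.938) in CPIP+Veh and 0.44 (SE 0.18, edgeR adjusted p = 0.769) in CPIP+ETA.

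Col12a1, which binds type I fibres, was spread within the ischaemia groups at 54.3 and 50.6, 31.2 and 45.7, and 27.3 and 49.4 CPM. Library 1 was the low one in both. Col16a1, the fibril-associated chain with the most reads, stood at 163 and 147, 158 and 179, and 169 and 150.2 CPM, and Col14a1 at 103 and 95.2, 90.6 and 93.1, and 84.3 and 98.5 CPM. Col12a1, Col14a1, Col16a1, Col19a1 and Col20a1 had no unadjusted edgeR p under 0.05.

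Of the short-chain network collagens, Col8a2, a chain of the type VIII collagen made by vessel walls, stood at 46.0 and 57.3, 40.4 and 47.2, and 26.1 and 42.3 CPM. CPIP+ETA 1 was far below the other libraries. The log2 fold change was -0.60 (SE 0.22, edgeR adjusted p = 0.76) in CPIP+ETA against sham, -0.28 without CPIP+ETA 1 and -0.98 without CPIP+ETA 2. Against CPIP+Veh it was -0.36 (SE 0.22), and -0.05 without CPIP+ETA 1 and -0.75 without CPIP+ETA 2. Its partner Col8a1 stood at 8.61 and 8.76, 5.06 and 9.33, and 5.79 and 6.86 CPM, and Col10a1, the collagen of hypertrophic cartilage, at 3.14 and 6.51, 6.63 and 4.64, and 4.89 and 4.85 CPM.

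The transmembrane, anchoring and remaining chains showed no unadjusted edgeR p under 0.05. Col28a1, a collagen found around glia of peripheral nerve, stood at 122 and 92.3, 99.2 and 115, and 95.6 and 102 CPM. Col7a1, the anchoring fibril collagen, stood at 1.84 and 2.08, 1.72 and 3.48, and 1.16 and 3.32 CPM, with library 2 above library 1 in each group. Col13a1, a transmembrane collagen of the neuromuscular junction, stood at 4.17 and 4.21, 4.51 and 2.93, and 2.92 and 3.76 CPM, Col25a1 at 1.42 to 3.12 CPM and Col26a1 at 1.11 to 2.07 CPM. Untested for lack of reads were Col17a1, the hemidesmosome collagen of skin, with 35 reads in all, and Col23a1, with 1 read in Sham+Veh 2 and 0 in the others, where a count of 0 allows up to 0.15 to 0.164 CPM by counting error alone.

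Genes that fold, trim and cross-link collagen were examined in lists. Of the 19 genes of synthesis and folding, edgeR called none after adjustment in any comparison, and the medians were -0.05 in CPIP+Veh against sham, -0.04 in CPIP+ETA against CPIP+Veh and -0.08 in CPIP+ETA against sham. At an unadjusted edgeR p under 0.05 there was 1 gene, lower, in CPIP+ETA against CPIP+Veh (2.73% of all genes tested were lower). That gene was Ppib, a prolyl isomerase of the collagen folding complex, with a log2 fold change of -0.18 (SE 0.071). Of the 12 genes of procollagen processing and cross-linking, 0, 0 and 3 were lower at an unadjusted edgeR p under 0.05 in the same order (2.59%, 2.73% and 3.73% of all genes tested were) and none was higher, with medians of -0.07, -0.13 and -0.22. The 3 were Adamts2, the protease that removes the amino-terminal propeptide of type I and III procollagen, at 40.2 and 44.8, 29.4 and 37.7, and 19.4 and 29.7 CPM, its relative Adamts14, and the cross-linking oxidase Loxl1. Adamts2 had a log2 fold change of -0.79 (SE 0.21, edgeR adjusted p = 0.617) in CPIP+ETA against sham, with every ischaemia library below sham. Adamts14 had -0.39 (SE 0.14) and Loxl1 -0.68 (SE 0.25).

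Of the 10 collagen receptor and uptake genes, 2 were lower at an unadjusted edgeR p under 0.05 in CPIP+Veh against sham (2.59% of all genes). Against CPIP+Veh, CPIP+ETA had 2 lower (2.73%) and 1 higher (2.42%), and in CPIP+ETA against sham 3 were lower (3.73%), none after adjustment. Ddr2, a kinase receptor for fibrillar collagen, stood at 46.8 and 47.8, 39.9 and 42.8, and 28.6 and 37.2 CPM, with log2 fold changes of -0.53 (SE 0.12, edgeR adjusted p = 0.531) in CPIP+ETA against sham and -0.33 (SE 0.12) against CPIP+Veh. Its groups stood apart in the order sham, CPIP+Veh, CPIP+ETA. Mrc2, the receptor that takes up collagen fragments, had -0.86 (SE 0.23, edgeR adjusted p = 0.617) in CPIP+ETA against sham. Lair1, a collagen receptor of leukocytes, had -1.05 (SE 0.39, edgeR adjusted p = 0.76) there, on few reads: 33 and 21, 36 and 27, and 13 and 14. Ddr1, the receptor shared by fibrillar and type IV collagen, had -0.19 (SE 0.061) in CPIP+Veh against sham and 0.27 (SE 0.061, edgeR adjusted p = 0.938) in CPIP+ETA against CPIP+Veh. The integrin chain Itga11 had -0.65 (SE 0.19) in CPIP+Veh against sham. Of the 15 tested partners of collagen in basement membranes, 0, 1 and 3 had an unadjusted p under 0.05 on the lower side (2.59%, 2.73% and 3.73% of all genes) and none on the higher, with medians of -0.10, -0.13 and -0.23. The 3 were Nid2, a linker of laminin and type IV collagen, with -0.34 (SE 0.079, edgeR adjusted p = 0.531) in CPIP+ETA against sham, the laminin chain Lama4 with -0.33 (SE 0.084) and the collagen-binding Sparc with -0.23 (SE 0.081). Nid2 was also the 1 lower in CPIP+ETA against CPIP+Veh, with -0.21 (SE 0.079).

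Marker lists of other cell types were read beside the collagens, and edgeR called none of their genes after adjustment. Fibroblast markers (10 genes) had 9 members below sham in CPIP+Veh (51.0% of all genes were) and 10 in CPIP+ETA (50.7%), with medians of -0.21 and -0.48. At an unadjusted edgeR p under 0.05, 0 were lower in CPIP+Veh (2.59% of all genes) and 3, Lum, Cd34 and Clec3b, in CPIP+ETA (3.73%). Their summed level was 3049 and 3082 CPM for sham, 2855 and 3074 for CPIP+Veh, then 2601 and 2814 for CPIP+ETA. In that sum CPIP+Veh overlapped sham, and both CPIP+ETA libraries lay below all others. Without Thy1, which sensory neurons also express, it was 1344 and 1499, 1264 and 1398, and 893 and 1288 CPM in the same order. Here CPIP+Veh overlapped both sham and CPIP+ETA, and CPIP+ETA 1 was the lowest library, as it was in the fibrillar sum. Dcn made up most of this smaller sum, at 988 and 1102, 952 and 1017, and 675 and 955 CPM. Endothelial markers (11 genes) added up to 257 and 271, 225 and 217, and 220.2 and 255 CPM, and pericyte and smooth muscle markers (11 genes) to 249 and 245, 190.3 and 188, and 180.2 and 214 CPM, each below sham in every ischaemia library. At that threshold, CPIP+Veh had 5 endothelial and 5 pericyte and smooth muscle markers lower than sham (2.59% of all genes). Over each whole list and in either direction, DESeq2 called 0 and 2 (0.315% of all genes). In CPIP+ETA against sham DESeq2 called 1 and 0 (0.322%). There, at an unadjusted edgeR p under 0.05, 3 and 4 were lower (3.73%) and 1 pericyte marker, Abcc9, was higher (2.64%). In CPIP+ETA against CPIP+Veh, 1 endothelial and 3 pericyte and smooth muscle markers were higher at that threshold (2.42%) and none lower. Of the 10 fibroblast markers, 8 lay below CPIP+Veh there (50.4% of all genes did) and 2 above (49.6%), with a median of -0.21. At that threshold 1 of them, Lum, was lower (2.73%), with a log2 fold change of -0.48 (SE 0.19), and none was higher. No marker of these lists was at 0 in all libraries, and their part in the collagen values was not tested.

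Schwann and satellite glia markers (9 genes) had medians of 0.01 in CPIP+Veh and -0.02 in CPIP+ETA against sham and summed to 5970.5 and 7189.8, 7093 and 6185, and 5067 and 7283 CPM, with CPIP+ETA 1 lowest again. In CPIP+ETA against sham, 4 of the 9 lay above sham (49.3% of all genes did) and 5 below (50.7%). At an unadjusted edgeR p under 0.05, 1 was higher there (2.64%) and none lower. That gene was Fabp7, a fatty acid binding protein of satellite glia, with a log2 fold change of 0.46 (SE 0.11, edgeR adjusted p = 0.531). Sensory neuron markers (10 genes) had medians of -0.06 and 0.02. In CPIP+Veh against sham, 1 of them, Prph, was higher at an unadjusted edgeR p under 0.05 (2.34% of all genes) and 2, Prdm12 and Rbfox3, lower (2.59%), and DESeq2 called 1. Prph was also the 1 higher in CPIP+ETA against sham (2.64%), where none was lower. For the cartilage collagens, the bone and cartilage markers (10 genes in the table, 5 of them tested) totalled 94.3 and 93.3, 90.7 and 76.6, and 88.0 and 80.1 CPM. Acan, Chad, Matn1 and Matn3 stood at no more than 0.554 CPM in any library, and the cartilage genes Comp at 11.8 to 13.4 and Hapln1 at 35.1 to 44 CPM. Of the 5 tested, 3 lay above sham in CPIP+Veh (49.0% of all genes did) and 3 in CPIP+ETA (49.3%), with medians of 0.03 and 0.07. Alpl, listed here with the bone markers, stood at 39.0 and 38.9, 30.8 and 25, and 27.5 and 26.1 CPM, a large part of the list's total. Alpl and Ibsp were lower at an unadjusted edgeR p under 0.05 in CPIP+Veh against sham (2.59% of all genes). Alpl was also lower in CPIP+ETA against sham (3.73%). The bone gene Bglap lay above sham in CPIP+Veh, with a log2 fold change of 0.49 (SE 0.35). Skeletal muscle markers (8 genes) totalled 15.8 and 29.3, 16.0 and 82.1, and 10.1 and 45.3 CPM, with library 2 above library 1 in each group. All 8 lay above sham in CPIP+Veh (49.0% of all genes did) and 7 in CPIP+ETA (49.3%), with medians of 1.28 and 0.38. Against CPIP+Veh, 7 lay below in CPIP+ETA (50.4%) and 1 above (49.6%), with a median of -0.78. None had an unadjusted edgeR p under 0.05 in any comparison. Adipocyte markers (7 genes) totalled 14.0 and 9.47, 4.05 and 5.75, and 4.84 and 7.02 CPM, with the sham libraries highest. The 4 adipocyte markers tested all lay below sham in both ischaemia groups (51.0% and 50.7% of all genes did), with medians of -2.82 and -1.46. At an unadjusted edgeR p under 0.05, 3 were lower in CPIP+Veh (2.59%) and 2 in CPIP+ETA (3.73%). In CPIP+ETA against CPIP+Veh, 3 of the 4 lay above (49.6% of all genes did) and 1 below (50.4%), with a median of 1.63. There 2 were higher at that threshold (2.42%) and none lower. Their reads were few: Adipoq, the one of lowest p, had 22 and 12, 0 and 0, and 2 and 2. The part of the muscle and adipocyte markers in the collagen values was not tested.

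**Figure D5:**
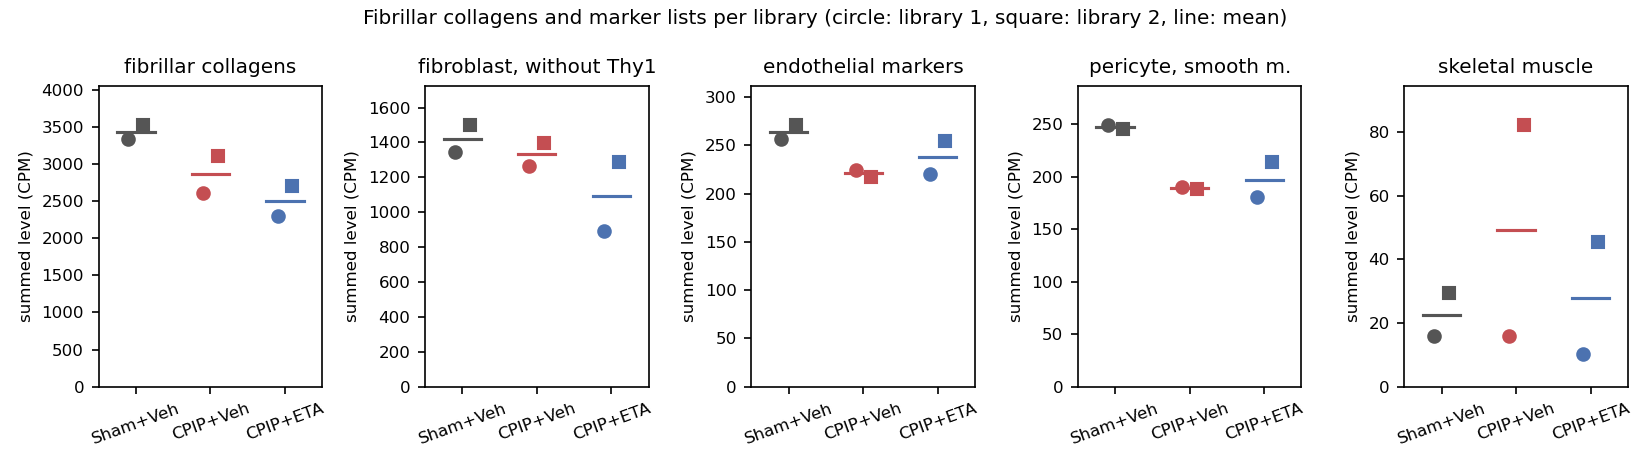
Summed level (CPM, y axis from 0) of the fibrillar collagens and of 4 marker lists in each library, by group on the x axis, with a circle for library 1, a square for library 2 and a line at the mean. The fibroblast panel leaves out Thy1. Fibrillar collagens, endothelial markers and pericyte and smooth muscle markers are lower in every ischaemia library than in sham, and CPIP+ETA 1 has the lowest fibroblast sum without Thy1 (893 CPM).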

How the data were processed

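RNA sequencing of 6 rat dorsal root ganglion libraries (3 groups of 2) was analysed from the table of expected counts (fractional read estimates for each gene) that the authors deposited; 32.7% of its values were whole. Trizol-extracted RNA with a RIN of at least 8.0 was sequenced on the BGISEQ-500, per the labels' protocols. Per the submitters' processing notes the genome build was Rnor_6.0; aligner, counter, strand setting and gene models: not given in the sources used here. Genes blank in every library (2907 of 22864) were read as 0.

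Counts were rounded and tested with edgeR 4.0.16 (R 4.3.3; quasi-likelihood F-test), in 1 fit of all 6 libraries with group as the only term, TMM scaling and filterByExpr by group (count of 10 or more, total of 15 or more). This kept 15531 genes. The test was two-sided, with Benjamini-Hochberg adjustment over all of them and calls at an adjusted p under 0.05. Standard errors are the log2 fold change over the square root of F, with 3 residual and 3.64 prior degrees of freedom. The test was checked on simulated data. No pair within a group was a duplicate: chi-square values per gene were 5.91 to 9.83.

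The members are the rule's 44 symbols, and they, their classes and the other gene lists were chosen with earlier results of these data known. Described in full were members with an unadjusted p under 0.05 or a call by any tool in any comparison, and in each class the member with the most reads; the rule had asked for the highest level per coding length, for which no lengths were available. Genes named from the other lists were among the 3 of lowest p in a comparison, except markers given by level and Thy1, named after its value was seen. Of the glia markers, 1 is not reported here. Also run were DESeq2 1.42.0, limma-voom (limma 3.58.1), scaling by RLE, by upper quartile or by totals alone, 2 other filters, 2-group fits, a robust prior, a block for the title number and each library left out, where the single remaining library was taken to have the spread of the other groups. The log2 ratios to the sham mean used a pseudocount of 0.1 CPM. Figures were drawn with matplotlib 3.10.9.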

Additional observations from a re-analysis of the deposited data

How the results depend on the processing

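Directions and calls were computed under 16 alternatives each. No collagen chain was called by edgeR or limma-voom in any of them; DESeq2 called 1 in CPIP+Veh against sham, 0 in CPIP+ETA against CPIP+Veh and 2 in CPIP+ETA against sham. Over all genes edgeR called 3, 0 and 3 in these comparisons and DESeq2 49, 21 and 50; in the third, limma-voom and the 2-group fit called 1. With 1 library left out the counts were 1 to 3, 0 and 1 to 2.

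The count of lower chains at an unadjusted p under 0.05 in CPIP+Veh against sham was 5, with 3 by DESeq2, 8 in the 2-group fit, 9 with the replicate block and 2 to 8 with 1 library left out. The count of higher chains there was 1, with 0 by DESeq2 and 0 to 1 with a library left out. In CPIP+ETA against CPIP+Veh there were 0 lower chains, 4 with the replicate block and 0 to 12 with a library left out, and 1 higher, 0 to 1 with a library left out. In CPIP+ETA against sham there were 10 lower chains (4 to 20 with a library left out) and 2 higher (1 by DESeq2, limma-voom and the 2-group fit, 0 to 2 with a library left out).

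With a library left out, chains below 0 numbered 25 to 33, 18 to 34 and 27 to 35, and their medians ran from -0.19 to -0.06, -0.21 to 0.02 and -0.37 to -0.06. Only Col4a1 and Col4a2 changed sign among the members whose fold changes are given, to 0.03 and 0.02 without CPIP+ETA 1 in CPIP+ETA against sham (-0.25 and -0.17 without CPIP+ETA 2). Why these values moved was not tested. Over all 15531 genes, libraries with the same title number did not deviate together (correlations of deviations 0.04, -0.11 and 0.03). For the 42 collagen chains, the median log2 ratio to the sham mean was lower in library 1 of each group. Library 1 medians were -0.06, -0.16 and -0.35 in sham, CPIP+Veh and CPIP+ETA, against 0.06, -0.1 and -0.07 for library 2. In CPIP+Veh against sham the block took the SE of Col1a1 from 0.16 to 0.059 and left that of Col1a2 at 0.13. Whether the collagens deviated together by title number was not tested. The block left the calls over all genes at 3, 0 and 3. Depth limits the values of Col4a4, Col4a6 and Col6a4 most, with 95 to 101 reads in all, the fewest of the chains tested.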
